A study of Homo sapiens with 6 samples.

Results

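The miRNA annotation used for these libraries holds entries whose sequences also occur in the structural RNAs of the ribosome and the spliceosome, and 3 of its 2575 mature entries are described here: hsa-miR-7641, hsa-miR-6087 and hsa-miR-1246 (written below without the species prefix). They were chosen by name, as annotated miRNAs overlapping abundant structural RNAs, and because earlier results of these same data had shown large differences in them between the titled groups. Their differences between the groups are therefore given as descriptions, without a test. The series sequenced small RNA from exosomes, vesicles released into the medium by HCT116 cells, an established human colorectal cancer line. The 3 libraries untreated-titled came from cells given bacterial medium without bacteria. The 3 libraries ETBF-titled came from cells co-cultured for 6 h, at a multiplicity of infection of 500, with enterotoxigenic Bacteroides fragilis (ETBF), a gut anaerobe that secretes a protease toxin. All 6 libraries share the cell line and the collection of vesicles by centrifugation. The names of the deposited files carry the opposite group in 6 of 6 libraries. Groups here follow the sample titles, and should the file names be the correct ones, each direction given below turns around.

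Ribosomal RNAs form the scaffold and the catalytic centre of the ribosome, and the U2 small nuclear RNA pairs with the branch point of introns in the spliceosome. They are among the most abundant RNAs of a cell, and pieces of them are common in RNA from extracellular vesicles. A true miRNA is cut from a hairpin by Drosha and Dicer and loaded into an Argonaute protein, whereas a structural RNA fragment of similar length can be sequenced and counted under a miRNA name without passing through that pathway. Counts alone do not tell these origins apart. miR-7641 is generally regarded as a piece of 5S ribosomal RNA, miR-6087 as a piece of 28S ribosomal RNA and miR-1246 as a piece of U2.

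The overlap could be read from sequence for miR-1246, whose mature form, hairpin and U2 counterpart are shown because the whole mature sequence recurs in U2. The miRNA sequences are from RefSeq (GRCh38.p14), and the U2 stretch is from the RNU2-1 transcript of GENCODE release 29 (GRCh38) with T written as U. Capitals mark the seed (bases 2 to 8) in the mature form, the mature sequence in the hairpin, and the same bases in U2.
miR-1246: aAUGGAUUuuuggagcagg
MIR1246 hairpin: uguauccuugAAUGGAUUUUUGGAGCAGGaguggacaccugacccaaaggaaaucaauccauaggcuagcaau
RNU2-1: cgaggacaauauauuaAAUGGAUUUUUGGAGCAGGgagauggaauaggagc
All 19 bases of miR-1246 stand at positions 94 to 112 of the 191-base RNU2-1 transcript, on the same strand. The identity ends exactly there, since 0 further bases were shared on the 5′ side and 0 on the 3′ side between the hairpin and U2. Among 5708 transcripts of structural RNAs in GENCODE, 19 held the mature sequence without a mismatch and 12 more held it with 1 mismatch. All 19 exact matches were among the 90 transcripts named for U2 or its Rfam family. A read of these 19 bases can therefore come from MIR1246 on chromosome 2, minus strand, which lies outside other annotated genes, or from U2, and its sequence does not say which.

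Neither miR-7641 nor miR-6087 had a sequence in the RefSeq table. In the GENCODE annotation, MIR7641-2 lies on chromosome 14 inside RNA5SP387, a 5S ribosomal RNA pseudogene on the same strand, within an intron of the transporter gene FLVCR2. The other of the 2 miR-7641 loci, MIR7641-1, lies on chromosome 11 and MIR6087 on the X chromosome, and no other gene overlaps either. The files' build is GRCh37.p5, so chromosomes and gene overlaps are given here without coordinates. A read that fits both miR-7641 loci may have been counted at each of them. Whether that happened was not tested.

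The libraries held 200207 to 417321 counts, in 417 to 482 detected entries. The most abundant entry in each of the 6 was miR-148a-3p, with 26.3% to 38.2% of the untreated-titled counts and 33.1% to 51.1% of the ETBF-titled counts. The other abundant miRNA that sets the scale was miR-21-5p, with 9.04% to 9.68% and 6.67% to 11.0%. The colorectal epithelial markers miR-192-5p, miR-194-5p, miR-200a-3p, miR-200b-3p, miR-200c-3p, miR-141-3p and miR-429 were present in 6 of 6 libraries. Together they held 3.25% to 3.63% of the untreated-titled and 2.23% to 3.81% of the ETBF-titled counts, and 0 of the 7 passed the edgeR test between the groups, against 14.4% of all tested entries. miR-192-5p and miR-194-5p had log2 fold changes of -0.31 and -0.29 (edgeR adjusted p of 0.0587 and 0.0666). The TMM-scaled levels of both were lower in each ETBF-titled library than in any untreated-titled one, a pattern that 19.5% of tested entries had. Among the markers listed next, miR-142-5p of white blood cells and miR-1 and miR-122-5p of muscle and liver had it too. Summed markers of red blood cells and serum held 0.144% to 0.165% and 0.123% to 0.188%, and those of white blood cells 0.0406% to 0.0426% and 0.0284% to 0.0443%. Most of the red blood cell and serum counts were miR-16-5p, with miR-451a, miR-486-5p and miR-144-3p making up the rest. The muscle and liver markers miR-1, miR-206 and miR-122-5p held 2.32% to 2.61% and 1.72% to 2.54%. A further listed name, miR-133a, is not among the entries. The entry miR-133a-3p, at a mean of 1481 CPM (untreated-titled) and 1192 CPM (ETBF-titled) after TMM scaling, was not summed. It too was lower in each ETBF-titled library than in any untreated-titled one. All these shares are of the plain library total. The 3 entries described here held 16.1% to 28.3% of it in the untreated-titled libraries and 0.531% to 0.927% in the ETBF-titled ones. Shares of the remaining counts would therefore rise more in the untreated-titled libraries, so overlapping ranges do not show that marker levels were alike. None of these lists has a defining marker at 0 in all libraries, and their part in the values below was not tested.

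miR-7641 was the second most abundant entry in each of the 3 untreated-titled libraries. It held 48895, 45308 and 43088 counts there, in replicates 1, 2 and 3, and 1340, 943 and 1624 counts in the ETBF-titled libraries. As a share of the library this was 24.4% (95% exact Clopper-Pearson interval 24.2 to 24.6), 12.3% (12.2 to 12.4) and 14.7% (14.6 to 14.8) in the untreated-titled libraries. In the ETBF-titled libraries the shares were 0.535% (0.507 to 0.564), 0.425% (0.398 to 0.453) and 0.389% (0.370 to 0.409). The groups did not overlap, and the lowest untreated-titled share was 23.0 times the highest ETBF-titled share. In rank it went from second to places 22 to 26. The intervals cover counting error only, and the spread among untreated-titled libraries, 1.99-fold from lowest to highest, was far wider than they are.

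Counts of miR-7641 hardly differed among the untreated-titled libraries, whereas the counts of all other entries did, and replicate 1 had the fewest of those. Summed over the 3 entries, the untreated-titled libraries held 56597, 59416 and 54261 counts, a coefficient of variation of 4.55%. Their other entries held 143610, 309507 and 239184 counts, with a coefficient of variation of 36.1%. Per 1000 counts of other entries, miR-7641 stood at 340.5, 146.4 and 180.1 in the untreated-titled libraries and at 5.40, 4.27 and 3.91 in the ETBF-titled libraries. Without untreated-titled replicate 1, the mean share was 30.0 times that of the ETBF-titled libraries, against 38.1 times with it.

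miR-6087 held 6892, 12773 and 9911 counts in the untreated-titled libraries and 580, 216 and 383 in the ETBF-titled libraries. Its untreated-titled shares were nearly identical at 3.44% (3.36 to 3.52), 3.46% (3.40 to 3.52) and 3.38% (3.31 to 3.44), and their counting intervals overlap. The evenness belongs to the share of the total: per 1000 other counts the values were 48.0, 41.3 and 41.4, highest in the replicate where miR-7641 took most of the library. The ETBF-titled shares were 0.232% (0.213 to 0.251), 0.0973% (0.0848 to 0.111) and 0.0918% (0.0828 to 0.101). Replicate 1 was the highest of them, 2.52 times the lowest, and still 14.6 times below the lowest untreated-titled share. The entry ranked 4 or 5 in the untreated-titled libraries and between 42 and 62 in the others.

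miR-1246, the U2 match shown above, was the least abundant of the 3 entries and the least different. It held 810, 1335 and 1262 counts in the untreated-titled libraries and 402, 202 and 210 in the ETBF-titled libraries. The shares were 0.405% (0.377 to 0.433), 0.362% (0.343 to 0.382) and 0.430% (0.407 to 0.454), against 0.161% (0.145 to 0.177), 0.0910% (0.0789 to 0.104) and 0.0503% (0.0437 to 0.0576). The groups did not overlap here either, but the gap was narrower, with the lowest untreated-titled share 2.25 times the highest ETBF-titled share. The 3 ETBF-titled shares have counting intervals that do not overlap each other, with replicate 1 the highest and replicate 3 the lowest. By share of the library total, ETBF-titled replicate 1 was thus the highest of its group for each of the 3 entries. Without that library the ratio of mean shares between the groups was 42.1 for miR-7641, 36.3 for miR-6087 and 5.64 for miR-1246, against 38.1, 24.4 and 3.96 with it.

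**Figure D1:**
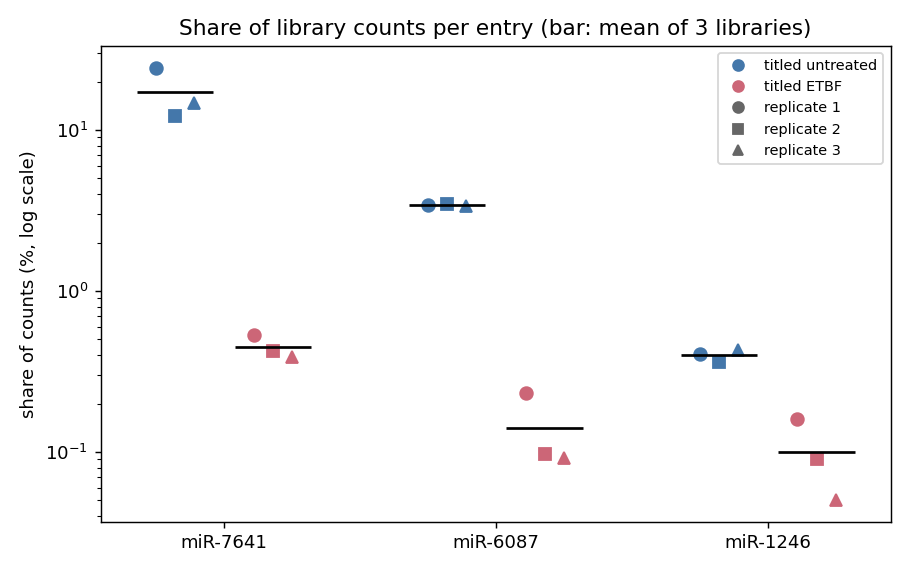
Share of each library's counts (%, log scale) held by miR-7641, miR-6087 and miR-1246. Points are single libraries, with shape for the replicate and colour for the titled group, and bars are means of 3 libraries. The titled groups do not overlap for any of the 3 entries, and ETBF-titled replicate 1 has the highest share of its group for each.

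Summed, the 3 entries took 28.3%, 16.1% and 18.5% of the untreated-titled libraries, 21.0% ± 6.45 (SD, n = 3). In the ETBF-titled libraries they took 0.927%, 0.613% and 0.531%, 0.691% ± 0.209 (SD, n = 3). The lowest untreated-titled library was thus well above the highest ETBF-titled one.

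Levels were next expressed as CPM, counts adjusted for library size, here after TMM scaling, a correction for library composition by the trimmed mean of log ratios. Of the 2575 entries, 195 had enough counts to be tested. The edgeR fit gave log2 fold changes, ETBF-titled over untreated-titled, of -5.18 for miR-7641 (SE 0.28), -4.61 for miR-6087 (SE 0.25) and -2.00 for miR-1246 (SE 0.22). These are the 3 lowest values of the 195 tested entries, whose median was -0.03. The next lowest were miR-889-3p at -0.99 and miR-339-5p at -0.79, both named because they lie just outside the 3. At least 4-fold lower by the fitted value were 3 of 195 entries, or 1.54%, which are the entries described here. All 3 were lower in each ETBF-titled library than in any untreated-titled one, a pattern that 19.5% of tested entries had. Since the entries were chosen from this contrast, nothing is read from those counts.

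**Figure D2:**
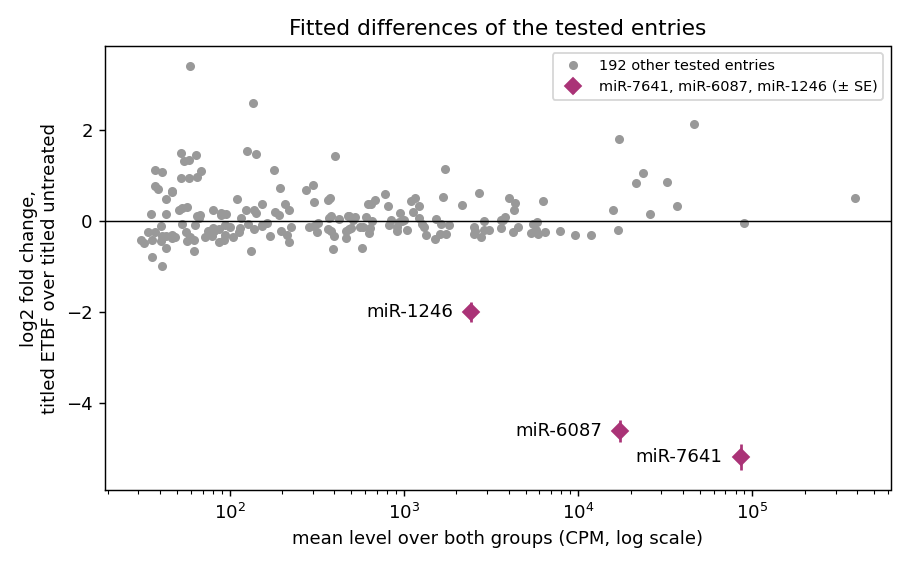
Fitted log2 fold change of ETBF-titled over untreated-titled against the mean level in CPM (log scale) for the 195 tested entries. Diamonds with SE bars are miR-7641, miR-6087 and miR-1246, at -5.18, -4.61 and -2.00, and all 192 other entries lie at -0.99 or above.

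Ratios of counts between entries within a library do not depend on how libraries are scaled. They are ratios of counts as deposited and are not divided by length. miR-7641 held 7.09, 3.55 and 4.35 counts per miR-6087 count in the untreated-titled libraries and 2.31, 4.37 and 4.24 in the ETBF-titled libraries. These values overlap, and replicates 2 and 3 of both groups lie between 3.55 and 4.37, so miR-7641 and miR-6087 stood in a similar ratio in those 4 libraries while each was more than 20-fold lower in the ETBF-titled group. Replicate 1 stood apart on opposite sides, the highest ratio of all in the untreated-titled library and the lowest in the ETBF-titled library. The mean log2 ratio was 2.26 ± 0.51 and 1.81 ± 0.52 (SD, n = 3).

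The ratios to miR-1246, the U2 match, differed between the groups. miR-7641 held 60.4, 33.9 and 34.1 counts per miR-1246 count in the untreated-titled libraries and 3.33, 4.67 and 7.73 in the ETBF-titled libraries. miR-6087 held 8.51, 9.57 and 7.85 counts per miR-1246 count in the untreated-titled libraries and 1.44, 1.07 and 1.82 in the others. Neither of these ratios overlapped between the groups, and on geometric means they were 8.35 and 6.10 times lower in the ETBF-titled libraries. Seen as the make-up of the 3 entries together, miR-1246 went from 1.43% to 2.33% of their summed counts in the untreated-titled libraries to 9.47% to 17.3% in the ETBF-titled libraries. miR-6087 held 12.2% to 21.5% and 15.9% to 25.0% of that sum.

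**Figure D3:**
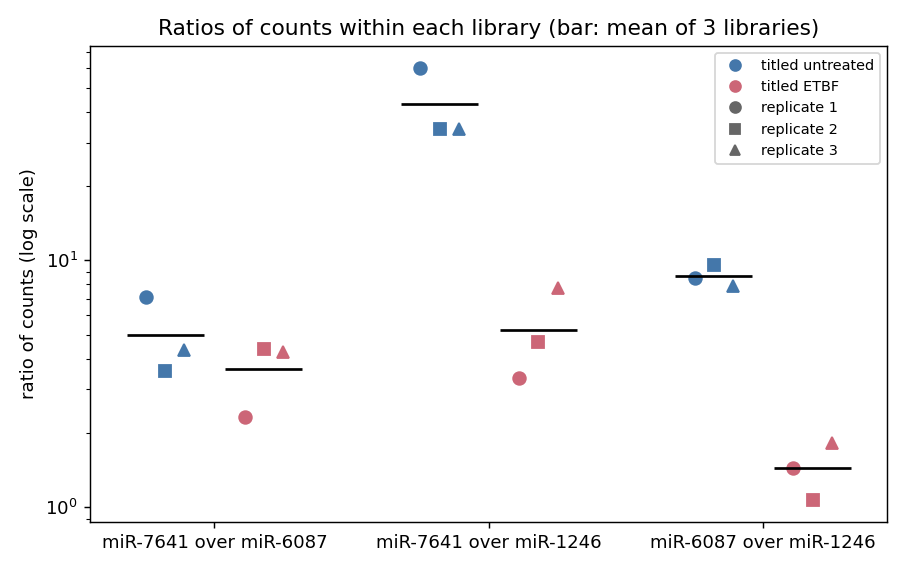
Ratios of counts between the entries within each library (log scale). Points are single libraries and bars are means of 3. The ratio of miR-7641 to miR-6087 overlaps between the titled groups, whereas both ratios to miR-1246 are lower in each ETBF-titled library than in any untreated-titled library.

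Other entries with a structural RNA counterpart were scarce. A list of 25 further names known to overlap tRNA, ribosomal precursor RNA, small nucleolar RNA (snoRNA, guides of RNA modification) or vault RNA had 17 in the files, of which 11 had any count and 0 were tested. Their summed counts were 19 to 28 in the untreated-titled and 12 to 31 in the ETBF-titled libraries, or at most 0.0124% of a library. The tRNA-overlapping entries miR-1260a, miR-1260b, miR-4454 and miR-7977 were at 0 in 6 of 6 libraries, which allows at most 15.0 CPM in the shallowest library (3 counts). The ribosomal precursor entries miR-663a and miR-3687 held 2, 2 and 3 and 5, 4 and 0 counts in the untreated-titled libraries, and 1, 0 and 0 and 2, 1 and 0 in the ETBF-titled libraries. That is near the floor of 3 counts, so no difference could be detected at this depth.

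The snoRNA entries with the most counts had groups that overlapped. miR-1291 held 4, 9 and 5 counts in the untreated-titled and 15, 4 and 10 in the ETBF-titled libraries, and miR-3607-3p held 3, 5 and 4 and 3, 3 and 5. At this depth only large differences would be detectable. The other snoRNA entries with counts in at least 3 libraries, miR-1248, miR-664a-5p, miR-664a-3p, miR-3607-5p and miR-3653, had at most 5 counts in any library.

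Searching all 2260 entries that have a RefSeq sequence against the 5708 structural transcripts gave 12 entries with an exact full-length match, and 5 more with 1 mismatch. Nuclear tRNAs and 28S ribosomal RNA were not searched here. Of the 12, miR-1246 was the only tested entry, so the sequence rule yields no tested list beside it. The other 11 summed to 14 to 32 counts in the untreated-titled and 10 to 22 in the ETBF-titled libraries. Most of these were miR-1291, which matched SNORA2C, and miR-6516-3p, which matched SCARNA16, a guide RNA of the Cajal body. miR-6516-3p, singled out after its values were seen, held 6, 17 and 9 counts against 4, 3 and 3. For miR-1291 the counts were 4, 9 and 5 against 15, 4 and 10. Neither had enough counts to be tested.

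miR-1290 is shown next because it resembles nearly the same part of U2, with 1 mismatch, and was almost absent. It too was singled out after its values were seen. The capital marks the mismatch to RNU2-1, U13G, with the base of miR-1290 first and positions counted from 1 at its 5′ end.
miR-1290: uggauuuuuggaUcaggga
It starts 2 bases after miR-1246 on U2 and shares 17 of the same U2 positions, 96 to 112, and 23 U2 transcripts carried it with 1 mismatch and none exactly. It had 1 count in the 6 libraries together, against 4221 for miR-1246. Its counts were 0 in 5 libraries and 1 in untreated-titled replicate 3. Since no U2 transcript carried miR-1290 exactly, its count was not taken as a measure of U2 pieces.

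By length, miR-1246 was the shortest of the 169 tested entries with a sequence, which do not include miR-7641 and miR-6087. It has 19 bases, the only one at or under that length, whereas the median was 22.0 and the longest had 25. Its GC content of 42.1% was ordinary, with 59 of the 169 lower and a median of 47.6%. No other entry in the files with a sequence shared its seed.

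After TMM scaling, the 3 entries did not run in parallel within a titled group. In ETBF-titled replicates 1, 2 and 3, miR-7641 stood at 4499, 4241 and 5015 CPM after TMM scaling, highest in replicate 3, while miR-1246 stood at 1350, 909 and 648 CPM, highest in replicate 1. In the untreated-titled libraries, miR-7641 was highest in replicate 1 at 237161 CPM, and miR-6087 in replicate 2 at 35173 CPM. Likeness of pattern to other entries was measured by Pearson's r of log2 CPM over the 6 libraries. Each r includes the gap between the groups for which the 3 were chosen, and the part within groups was not computed. The entry most like each of them among the 192 others was miR-889-3p, a member of the imprinted 14q32 cluster, with r of 0.963, 0.974 and 0.983 for miR-7641, miR-6087 and miR-1246. It held 11, 18 and 19 counts in the untreated-titled and 9, 6 and 8 in the ETBF-titled libraries. Next for miR-7641 came miR-127-3p (0.962) and miR-99a-5p (0.949). For miR-6087 they were miR-30d-5p (0.961) and miR-192-5p (0.946), and for miR-1246 miR-192-5p (0.972) and miR-30d-5p (0.967). The ranking says little beyond which entries were lower in the ETBF-titled libraries, as all 5 were by the fitted value, and the 6 libraries share their scaling. The sizes were unlike: the log2 fold changes of these 5 entries ran from -0.99 for miR-889-3p to -0.19 for miR-30d-5p.

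What the 3 entries do to the other miRNAs depends on how libraries are scaled. Leaving them out of the total multiplies the CPM of all other entries by 1.39, 1.19 and 1.23 in the untreated-titled libraries and by 1.01 in each ETBF-titled library when CPM is taken on the plain total. On that plain total, log2 fold changes of the 192 other tested entries moved by a median of -0.33 when the 3 were left out. All 192 moved nearly alike, by -0.34 to -0.30, so the balance of higher and lower calls shifted with the scale. With the 3 entries in the total, 18 others were called at an edgeR adjusted p under 0.05, 17 higher and 1 lower in the ETBF-titled libraries. Without them, a setting chosen after the data were seen, 40 were called, 10 higher and 30 lower, with 11 called in both.

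TMM scaling was far less affected. The difference between the groups in mean log2 scaled library size (total times factor), ETBF-titled minus untreated-titled, moved by -0.048. On the plain total it moved by 0.33. The other entries' log2 fold changes moved by a median of 0.05 under TMM. The TMM factors ran from 0.776 to 1.19 with all entries and from 0.701 to 1.27 without the 3. Each set applies to its own totals, so these ranges cannot be compared directly. Of the 192 others, 25 were called with the 3 entries in the scaling (13%; 21 higher, 4 lower) and 31 without them (16.1%; 27 higher, 4 lower). All 25 were kept and 6 were added, and 0 were lost. The count of 25 itself rested on single libraries: it was 56 without ETBF-titled replicate 1, and 14 without ETBF-titled replicate 3 or without untreated-titled replicate 3. The 6 added were let-7f-5p, miR-182-5p, miR-29b-3p, miR-1307-5p, miR-340-5p and miR-98-5p, all higher in the ETBF-titled libraries. Their edgeR adjusted p went from between 0.0576 and 0.0773 to between 0.0322 and 0.0478. let-7f-5p, a member of the growth-restraining let-7 family, stood at 0.33 on the log2 scale (SE 0.11, edgeR adjusted p = 0.0746) with the 3 entries and at 0.37 (SE 0.10, edgeR adjusted p = 0.0322) without them.

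Left out singly under TMM, the 3 entries gave moves that differed in direction. Leaving out miR-7641 gave 34 calls, 30 higher and 4 lower, with a median move of 0.06. Leaving out miR-6087, chosen after the data were seen, left 25 calls, 21 higher and 4 lower. Leaving out miR-1246, also chosen afterwards, moved the median by -0.05 and gave 31 calls, 19 higher and 12 lower, although it held at most 0.430% of a library. So the share of higher calls was 84% with all entries, 87.1% without the 3 and 61.3% without miR-1246 alone. No entry outside the 3 was left out in this way, so whether such moves are particular to them was not tested.

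**Figure D4:**
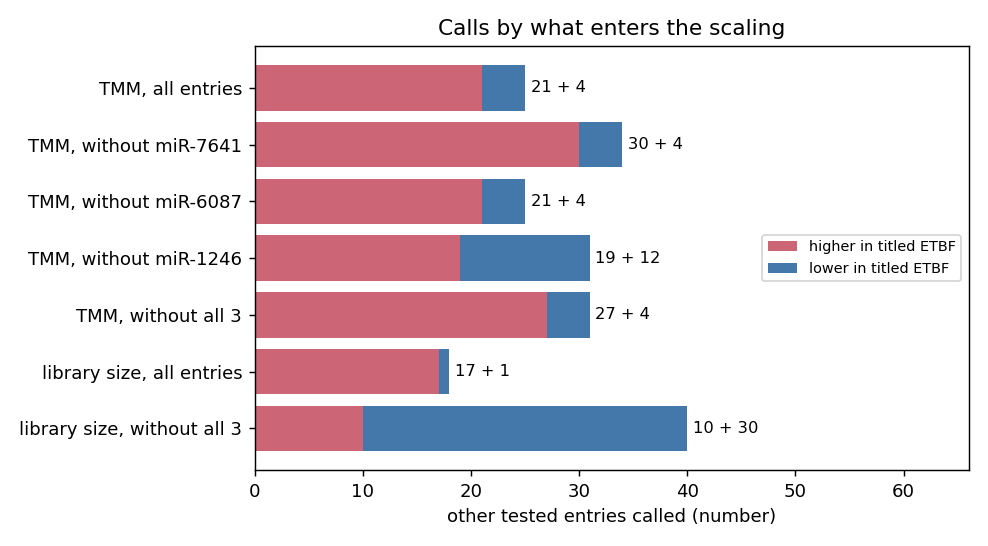
Number of the 192 other tested entries called at an edgeR adjusted p under 0.05, higher (red) or lower (blue) in the ETBF-titled libraries, by scaling method and by which of the 3 entries enter the scaling. On the plain library total the calls go from 17 higher and 1 lower to 10 higher and 30 lower when the 3 are left out, and under TMM from 21 and 4 to 27 and 4.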

How the data were processed

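Small RNA was sequenced from exosomes of HCT116 cells, 3 libraries per titled group. Reads were handled with FastQC, Trimmomatic and featureCounts on build GRCh37.p5, per the submitters' processing notes. Not given in the sources used here are tool versions, the aligner, the multi-mapping policy and the annotation. Deposited values are whole-number counts per mature entry, not normalised by the authors. Nothing in the labels places replicates in separate cultures; p-values therefore reflect only the spread of these libraries, possibly technical.

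The 3 entries and all lists were chosen with earlier results of these data known. Entries were kept by edgeR's filterByExpr (minimum count 10), scaled by TMM and tested by the two-sided quasi-likelihood F-test with Benjamini-Hochberg adjustment over all 195 tested entries, threshold 0.05. SE was taken as |log2 fold change| divided by √F. For correlations, 0.5 was added to counts. Shares carry 95% exact Clopper-Pearson intervals, which cover counting error only; 3 counts, the floor, correspond to 7.19 to 15.0 CPM of the library total. When entries were left out of the scaling, totals and factors were computed from the rest and the tested set stayed the same. Mature sequences were searched in structural RNA transcripts of GENCODE release 29, same strand, with at most 1 mismatch. Named entries are the 3, the 3 most correlated with each, the 2 most abundant others, and up to 6 whose call changes when the 3 are left out. The fixed overlap list, the cell type marker lists and tested entries of at most 19 bases are named as well. miR-133a-3p is named because the listed miR-133a is not among the entries. Other names were chosen after their values were seen, as marked where they appear. Scripts were tested on simulated data. Alternatives were other scalings, filters, DESeq2, limma-voom, a replicate block, halved miR-7641 counts, tested entries as denominator of the share, and each library left out. The tools were edgeR 4.0.16, DESeq2 1.42.0 and limma 3.58.1 in R 4.3.3.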

Additional observations from a re-analysis of the deposited data

How the results depend on the processing

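Of 81 alternative values of the 3 entries' log2 fold changes and log2 ratios, 0 changed sign. Of 117 alternative values, shares and counts of calls included, 106 stayed within the spread between replicates or, for counts of calls, within 1.5 times. Some of these values could not move. Leaving out an ETBF-titled library keeps the untreated-titled share as it was, and the reverse. Halved miR-7641 counts keep the differences in log2 ratios between the groups as they were. The 3 entries were also chosen for large differences, so neither tally measures how robust those differences are. The 25 calls among the other entries became 39 with upper-quartile scaling (36 higher, 3 lower), 48 with no filter and 40 with library size only and the 3 entries left out. Leaving out single libraries gave 14 to 56 calls: 56 without ETBF-titled replicate 1, and 14 without ETBF-titled replicate 3 and also without untreated-titled replicate 3. The share of higher calls, 84%, was 25% with library size only and the 3 left out (10 higher, 30 lower), 61.3% with miR-1246 left out of the scaling, 67.9% without ETBF-titled replicate 1 (38 higher, 18 lower), 94.4% with library size only and 95% without ETBF-titled replicate 2. DESeq2 gave 24 calls and limma-voom 22. With single libraries left out, the log2 fold change ran from -5.37 to -4.82 for miR-7641, from -4.98 to -4.37 for miR-6087 and from -2.36 to -1.78 for miR-1246. With library size only and the 3 left out, that of miR-7641 was -5.62. The summed share of the 3 was 17.3% to 23.4% (untreated-titled) and 0.572% to 0.770% (ETBF-titled) with single libraries left out. With miR-7641 counts halved, it was 13.6% and 0.467%. The causes of these moves were not tested, apart from the halving itself. The replicate block gave 35 calls, 23 of them among the 25. Same-numbered libraries had correlations of deviations of 0.147, 0.0794 and 0.00271, and not every library correlated best with its own number, so the numbers were not taken to pair the libraries.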
